A study of Homo sapiens with 10 samples.

Results

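The 39 genes described here carry cells from G1 into S phase and copy their DNA. They were taken by name, and each was read from its brightest probe set that names 1 gene, by the mean of log2(intensity + 16) over the 10 arrays. All 39 had such a probe set among the 19775 genes on the array, and all 39 passed the filter on dim genes that left 12979 genes for testing. By role, 14 belong to licensing and the helicase, 14 to DNA synthesis and the assembly of chromatin behind the fork, 5 to nucleotide supply and uracil removal, and 6 to G1/S control, histone mRNA and chromatin.

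The study measured total RNA from 2 human non-small cell lung cancer lines on Affymetrix expression arrays. A549 is an adenocarcinoma line, and HTB-182, which the series title calls H520, is a squamous cell carcinoma line. Before treatment, cultures spent 4 h in RPMI with 10% charcoal-stripped fetal serum, and treatment lasted 3 h. The treatments were 1 µM 17-β-estradiol coupled to albumin (E2-BSA) plus 10 µM tamoxifen, 1 µM E2-BSA alone, 1 µM 17-β-estradiol (E2) plus 10 µM tamoxifen, 1 µM E2 alone, and 0.1% ethanol as vehicle. Each line and treatment has 1 array, so the 10 arrays hold 5 treatments of each line and no stated replicate culture. E2-BSA is commonly used as an estrogen that does not readily enter cells, and tamoxifen is a modulator that competes with estradiol for the estrogen receptor. The titles of the E2 plus tamoxifen arrays name tamoxifen alone, and the source descriptions were followed.

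In G1 phase, CDC6 and CDT1 load the MCM2 to MCM7 ring onto replication origins, and the ring becomes an active helicase once CDC45 and the GINS complex join it. Cyclin E and its kinase release E2F factors from the retinoblastoma protein, and E2F then drives transcription of many genes of this group. In receptor-positive breast cancer cells, estrogen is known to push cells through this transition and tamoxifen to hold them before it.

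MAS5 intensities have no unit shared between probe sets, so levels are compared only within a probe set. The mean intensity of an array, with 2% trimmed at each end, lay between 106 and 116 over the 10 arrays. The A549 vehicle array stood apart from the rest of its line, at correlations of 0.969 to 0.979 with its fellow arrays. It had 263 genes that were 2-fold or more away from their mean, against 23 to 35 on each treated A549 array and at most 3 on any HTB-182 array. The median standard deviation of the 39 genes, in log2 units over the 5 arrays of a line, was 0.18 in A549 and 0.06 in HTB-182. It was 0.13 over the 4 treated A549 arrays. Line markers were checked: KRT7, a keratin of glandular epithelium, had 2836 to 4189.8 in A549 and 14.8 to 24.0 in HTB-182, while SOX2, amplified in many squamous tumours, had 36.1 to 192 in A549 and 3843 to 4377 in HTB-182. Of the 8 squamous markers 6 had a probe set here, of which KRT5 and SOX2 alone passed the filter, and KRT5 was at 18.7 to 28.5 in HTB-182, near the filter's intensity of 19.7, so the squamous keratins read here do not mark this line. Of the 7 alveolar and adenocarcinoma markers 6 had a probe set and 5 passed, and NAPSA, an alveolar protease, was as low as 25.5 to 34.8 in A549. Of the 6 fibroblast markers 2 passed, and COL1A1 had 266 to 475 in A549 and 19.1 to 22.9 in HTB-182. Of the 8 blood and endothelial markers 7 had a probe set and 4 passed, and LYZ alone of them differed between the lines, at 4.55 to 12.3 in A549 and 28.9 to 43.6 in HTB-182.

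Promoter stretches are shown for 8 genes whose values recur below: RFC4, MCM2, GINS2 and UHRF1 were among the genes furthest below in A549, PCNA and GINS1 were the genes higher in A549, MCM6 was lower in all 4 tamoxifen pairs, and CCNE1 overlapped between the lines. The sequences are RefSeq's on GRCh38.p14, 80 bases each, written 5′ to 3′ on the gene's strand. Each stretch begins 60 bases before the annotated start site, except that of MCM6, which begins 155 bases before it. Capitals mark E2F-site matches.
MCM2, chr3:127598351-127598430, plus strand: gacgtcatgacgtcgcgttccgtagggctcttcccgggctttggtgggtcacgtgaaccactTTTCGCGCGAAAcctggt
MCM6, chr2:135876519-135876598, minus strand: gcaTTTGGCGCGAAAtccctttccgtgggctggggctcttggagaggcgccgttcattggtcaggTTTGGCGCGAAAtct
GINS2, chr16:85688935-85689014, minus strand: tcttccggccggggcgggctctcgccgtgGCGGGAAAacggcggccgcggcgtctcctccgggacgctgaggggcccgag
UHRF1, chr19:4909441-4909520, plus strand: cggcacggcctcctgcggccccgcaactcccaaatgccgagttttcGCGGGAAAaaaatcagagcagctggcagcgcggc
PCNA, chr20:5126603-5126682, minus strand: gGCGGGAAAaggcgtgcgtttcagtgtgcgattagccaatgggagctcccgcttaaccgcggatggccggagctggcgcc
GINS1, chr20:25407613-25407692, plus strand: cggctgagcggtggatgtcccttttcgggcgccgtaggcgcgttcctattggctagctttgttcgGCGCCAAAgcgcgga
RFC4, chr3:186806463-186806542, minus strand: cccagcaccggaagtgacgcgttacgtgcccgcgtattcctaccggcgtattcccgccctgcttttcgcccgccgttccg
CCNE1, chr19:29811931-29812010, plus strand: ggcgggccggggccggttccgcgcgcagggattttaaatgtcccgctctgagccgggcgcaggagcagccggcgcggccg

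The forms searched as E2F sites were TTTCCCGC, TTTGGCGC, TTTCGCGC and TTTGCCGC, on both strands, from 250 bases before to 50 bases after each start site. MCM4, MCM5, GINS4, RPA2 and CCNE2 had no entry, which left 34 of the 39 genes. A match stood in 18 of these 34 promoters (52.9%), against 5.12% of the 10492 promoters of tested genes and 3.33% of all 27305 promoters read. Matches were in 9 of 11 licensing and helicase promoters, 5 of 13 synthesis promoters, 1 of 5 nucleotide supply promoters and 3 of 5 promoters of G1/S control. The 25 matches lay between positions -187 and 7, counted from the start site's base as 0, and 17 of them began between -60 and 10. In MCM2 and MCM6 neighbouring matches on opposite strands overlap, once in MCM2 and at both places in MCM6. Those in PCNA and LIG1 overlap a GC box, and 1 of those in MCM7 a CCAAT box. The CCAAT box (CCAAT) was in 55.9% of the 34 promoters and 36.4% of those of tested genes, and the GC box (GGGCGG) in 76.5% and 68.5%. The palindromic estrogen response element GGTCANNNTGACC was in 0 of the 34, and in 0.0659% of all promoters. These matches describe letters in a window and not bound sites.

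**Figure D1:**
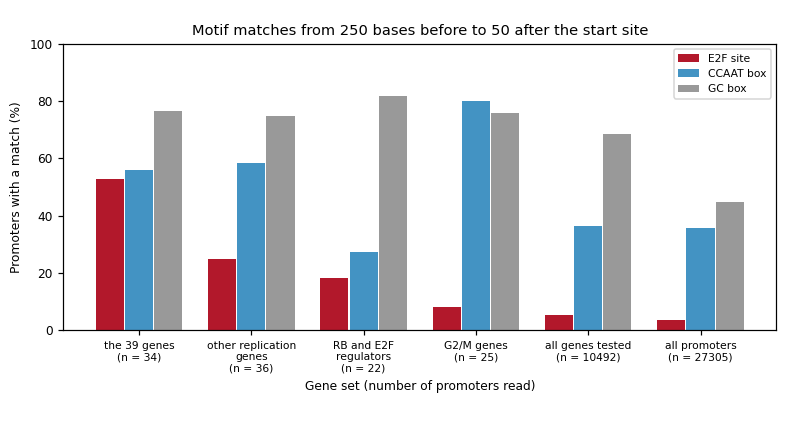
Share of promoters (%) with at least 1 match to the E2F-site forms, the CCAAT box or the GC box, in the 34 promoters of the 39 genes, in 3 other gene lists, in all tested genes and in all promoters read. E2F-site matches stood in 52.9% of the 34 promoters and in 25% of those of other replication genes, while CCAAT boxes were most frequent (80%) among G2/M genes.

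Between the lines, most replication genes were lower in A549 than in HTB-182. Of the 39 genes, 34 were lower in A549 and 2 were higher (limma, adjusted p under 0.05), while over all 12979 genes 32.0% were lower and 33.6% higher. The median difference of the 39 genes was -0.96 in log2 units, against 0.03 over all genes. In 32 of the 39, every A549 array lay below every HTB-182 array, as in 28.2% of all genes, and in 2 every A549 array lay above, as in 30.3%. Each line is 1 culture history under 5 treatments, so the p-values measure the spread over these arrays. In bulk RNA fewer cells in S phase and less RNA per cell cannot be told apart. Values below are intensities in the order E2-BSA plus tamoxifen, E2-BSA, E2 plus tamoxifen, E2 and vehicle.

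**Figure D2:**
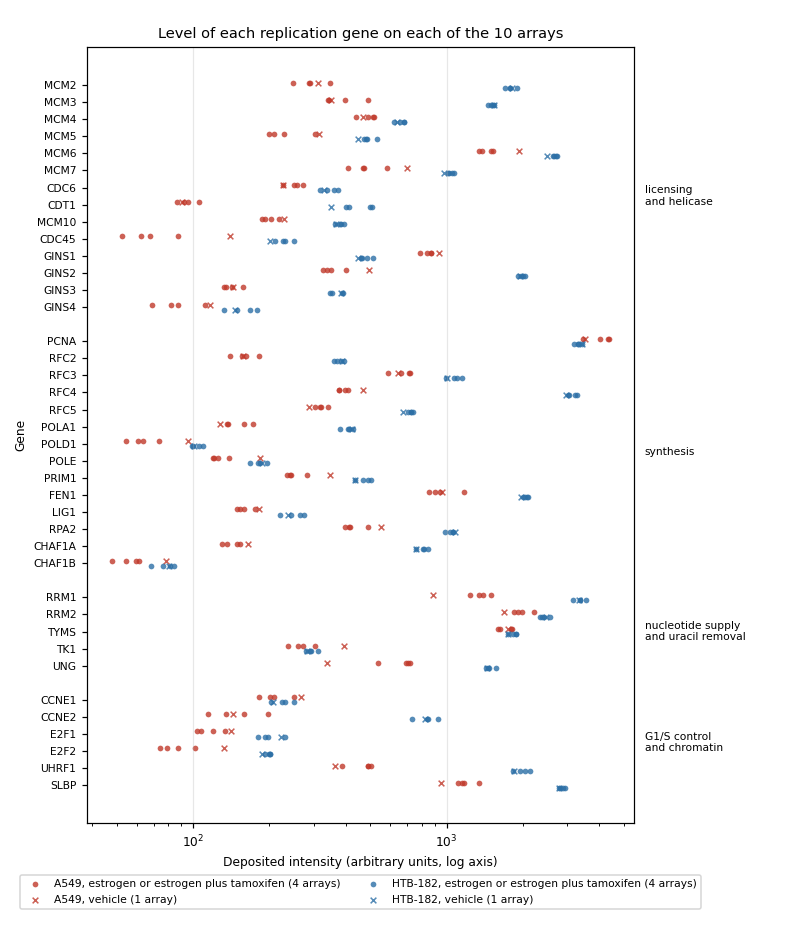
Deposited intensity (log axis) of the brightest probe set of each of the 39 genes on the 10 arrays, A549 in red above HTB-182 in blue, with vehicle arrays as crosses, grouped by role. A549 points lie left of HTB-182 points for most genes, GINS1 and PCNA lie the other way, and CCNE1, TK1, TYMS, POLE and CHAF1B overlap. Levels of different genes are not comparable.

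Of the 14 licensing and helicase genes, 13 were lower in A549 and GINS1 was higher. MCM2, a subunit of the helicase ring, had 290.1, 287, 248, 348 and 310.5 in A549 cells, against 1698, 1900.1, 1786, 1786 and 1811 in HTB-182 cells. The line difference of MCM2 was -2.54 (SE 0.09), or 5.82-fold lower in A549, with limma's adjusted p = 4.82e-10. All A549 arrays lay far below all HTB-182 arrays.
MCM3, a further ring subunit, had 399, 342, 345, 491 and 349.9 in A549 cells, against 1462, 1543, 1499, 1518 and 1540.3 in HTB-182 cells, a 3.84-fold lower level in A549. The other 4 ring subunits differed less: MCM7 was 1.96-fold lower in A549, MCM5 1.90-fold, MCM6 1.73-fold and MCM4 1.34-fold. The ring's subunits, which assemble in equal numbers, thus had unequal line differences on this array, from -0.42 for MCM4 to -2.54 for MCM2 in log2 units.
CDT1, the loader that geminin restrains, had 105, 95.7, 92.5, 86.2 and 90.1 in A549 cells, against 498, 508, 414, 401 and 351 in HTB-182 cells. It was 4.06-fold lower in A549 with no overlap of the lines, while its partner CDC6 was 1.37-fold lower. MCM10, which helps the helicase to start, was 1.78-fold lower. CDC45, which completes the active helicase, had 52.5, 67.5, 62.6, 87.0 and 139.8 in A549 cells, against 232, 249.8, 211, 226 and 202 in HTB-182 cells. The CDC45 values of A549 ran over a wide range, with vehicle the highest, and the line difference was -1.35 (SE 0.17, adjusted p = 3.59e-05 by limma).
The 4 GINS subunits, which form 1 complex, did not share a direction. GINS2 had 352, 337, 325, 401 and 494 in A549 cells, against 1974, 2046, 1911, 1998 and 1948 in HTB-182 cells, and was 5.06-fold lower in A549. GINS1 had 867, 867, 786, 836 and 930.2 in A549 cells, against 515, 486, 458, 463 and 446 in HTB-182 cells, and was 1.78-fold higher in A549 (adjusted p = 3.17e-06 by limma). For both genes the lines did not overlap. GINS3 was 2.46-fold lower and GINS4 1.58-fold lower in A549.

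Of the 14 genes of DNA synthesis and chromatin assembly, 13 were lower in A549 and PCNA was higher. RFC4, a subunit of the clamp loader, had 410.1, 378, 398, 378 and 468 in A549 cells, against 3217, 3259, 3027, 3035 and 2949 in HTB-182 cells. It had the lowest line difference of the 39 genes, -2.88 (SE 0.08), or 7.38-fold lower in A549, with limma's adjusted p = 7.60e-11. The other clamp loader subunits were also lower in A549, RFC2 by 2.26-fold, RFC5 by 2.22-fold and RFC3 by 1.59-fold.
PCNA, the sliding clamp that this loader places on DNA, had 4365, 4350.1, 4042, 3465 and 3504 in A549 cells, against 3287, 3306, 3409.98, 3187 and 3414 in HTB-182 cells. PCNA was 1.18-fold higher in A549 (adjusted p = 0.00547 by limma), and the A549 arrays lay just above those of HTB-182.
CHAF1A, the large subunit of the chromatin assembly factor that PCNA recruits, had 137, 148, 129.9, 154 and 165 in A549 cells, against 815, 842, 806, 758 and 756 in HTB-182 cells, a 5.00-fold lower level in A549. Its partner CHAF1B differed far less, 1.24-fold lower (adjusted p = 0.0255 by limma), and its lines overlapped.
Among polymerases, POLA1, which starts strands together with primase, was 2.64-fold lower in A549. POLD1, the lagging-strand polymerase, was 1.41-fold lower and POLE, the leading-strand polymerase, 1.30-fold lower, with limma's adjusted p = 0.0113 for POLE. The lines overlapped for POLE. PRIM1, the primase, was 1.70-fold lower. Of the genes that finish the lagging strand, FEN1, the flap nuclease, was 2.10-fold lower and LIG1, the ligase, 1.47-fold lower. RPA2, which coats single-stranded DNA, was 2.28-fold lower.

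**Figure D3:**
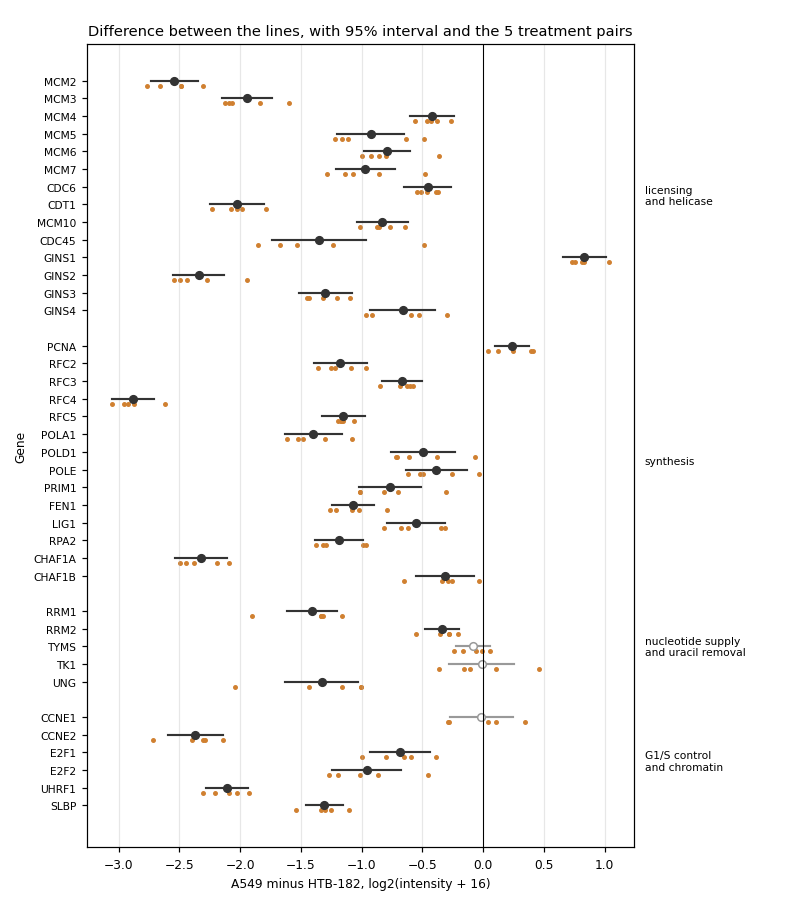
A549 minus HTB-182 in log2(intensity + 16) for each of the 39 genes by role: large dots with bars are limma estimates with 95% intervals (open and grey where adjusted p was 0.05 or more), small dots the 5 treatment pairs. RFC4 lies lowest at -2.88, GINS1 and PCNA lie above 0, and TYMS, TK1 and CCNE1 are the 3 open dots.

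Of the 5 genes of nucleotide supply and uracil removal, 3 were lower in A549 and 2 did not pass the test. RRM1, the large subunit of ribonucleotide reductase, had 1493, 1393, 1239, 1342 and 881 in A549 cells, against 3358, 3545, 3149.98, 3364 and 3330.3 in HTB-182 cells, and was 2.66-fold lower in A549. Its partner RRM2, the subunit that is made mainly in S phase, was 1.26-fold lower (adjusted p = 0.000642 by limma). UNG, which removes uracil from DNA, had 717, 692, 536, 704 and 338 in A549 cells, against 1457, 1565, 1475, 1428 and 1446 in HTB-182 cells, and was 2.51-fold lower in A549.
TYMS, which makes thymidylate, had 1797, 1596, 1622, 1811 and 1748 in A549 cells, against 1877, 1887, 1823, 1744 and 1754 in HTB-182 cells, with a line difference of -0.08. TK1, which salvages thymidine, had 259, 271, 237, 302 and 395 in A549 cells, against 289.97, 292, 310.1, 280.1 and 282 in HTB-182 cells, with a line difference of -0.01. The lines overlapped for both thymidylate enzymes.
Of the 6 genes of G1/S control, histone mRNA and chromatin, 5 were lower in A549. CCNE2, a cyclin E, had 159, 197, 135, 115 and 144 in A549 cells, against 835, 928, 733, 843 and 824 in HTB-182 cells, and was 5.17-fold lower in A549 (adjusted p = 3.42e-09 by limma). CCNE1, the other cyclin E, had 182, 201, 209, 250.03 and 267 in A549 cells, against 224, 249.5, 203, 231 and 207 in HTB-182 cells, with a line difference of -0.02 (95% interval -0.27 to 0.24). The lines overlapped for CCNE1 and lay far apart for CCNE2. UHRF1, which brings the maintenance DNA methyltransferase to newly copied DNA, had 491, 489.98, 386, 502 and 362 in A549 cells, against 2045, 2135, 1835, 1951 and 1849 in HTB-182 cells, and was 4.31-fold lower in A549. SLBP, which binds the stem-loop of histone mRNAs, was 2.47-fold lower, and the activator factors E2F2 and E2F1 were 1.94-fold and 1.61-fold lower.

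Line differences were also read by promoter match, as a description. The 18 genes with an E2F-site match had a median difference of -0.87, and the 16 without a match had -1.11. Matches stand in the stretches of MCM2, GINS2 and UHRF1, all lower in A549, and also in those of PCNA and GINS1, both higher. RFC4, with the lowest difference of all, has none of these letters in its window.

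Other lists were read for the same comparison. Of 44 other replication genes tested, 39 were lower in A549 and 3 higher. The largest differences were those of POLD4, a small subunit of polymerase delta (3.19), and, on the lower side, ATAD2 (-2.46), DONSON (-2.15), the histone chaperone ASF1B (-1.95), the origin subunit ORC6 (-1.94) and the primase subunit PRIM2 (-1.83). Of 27 regulators of the retinoblastoma and E2F pathway, 17 were lower in A549 and 4 higher. CDKN1A, an inhibitor of cyclin-dependent kinases, had 689 (lowest), 755 (median) and 1015 (highest) in A549 and 33.2 (lowest), 46.4 (median) and 61.3 (highest) in HTB-182, a difference of 3.80. CDKN2A, an inhibitor of CDK4 whose locus A549 is known to lack, had 7.42 (lowest), 16.8 (median) and 19.5 (highest) in A549 and 424 (lowest), 502 (median) and 568 (highest) in HTB-182. SKP2, which marks inhibitors for degradation, differed by -2.70, CCND3 by 2.51, E2F7 by -1.59 and MYBL2 by -1.52. Of 30 genes of G2 and mitosis, 28 were lower in A549 and 1 higher, with NDC80 (-2.26), CDC20 (-2.08), TTK (-2.01), BUB1B (-1.92), MKI67 (-1.91) and KIF20A (-1.79) the furthest apart. The part of the other cell cycle genes in the difference of the 39 was not tested.

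Tamoxifen over both estrogen forms was tested from 4 pairs of arrays, with against without tamoxifen. No replication gene passed, and 0 of 12979 genes were called (0%; 151 had an unadjusted p under 0.05). The median difference of the 39 genes was -0.07, against 0.0002 over all genes. Of the 39 estimates 33 lay below 0, against 49.9% of all genes. In 6 of the 39 genes (15.4%) the value was lower with tamoxifen in all 4 pairs, against 5.13% of all genes, and in 0 it was higher in all 4, against 7.36%. Of these 6, 4 are licensing and helicase genes. Some of the differences lay near 0, at -0.0055 for RFC5 in A549 on E2-BSA and -0.012 for MCM6 in HTB-182 on E2. Other probe sets above the filter were above 0 in HTB-182 on E2 for MCM6 (0.02) and GINS4 (0.0081), and for RFC5 in A549. Those of RFC5 gave 0.145 on E2 by 1 and 0.12 on E2-BSA by another. That of GINS3 was below 0 in both A549 pairs and in HTB-182 on E2.
GINS4, a GINS subunit, had 81.8 with and 87.5 without tamoxifen on E2-BSA in A549, and 68.8 with and 111 without it on E2. In HTB-182 GINS4 had 132 with and 179.5 without tamoxifen on E2-BSA, and 149 with and 168 without it on E2. The GINS4 estimate was -0.31 (95% interval -0.61 to -0.01), with an unadjusted p of 0.0456 and limma's adjusted p = 0.9998. Its 4 differences were unequal, with the largest in A549 on E2 (-0.59) and in HTB-182 on E2-BSA (-0.40). A dimmer GINS4 probe set above the filter gave a smaller estimate of -0.064 over both forms, with -0.13 on E2 and -0.0034 on E2-BSA. By that probe set both A549 pairs stayed below 0, at -0.26 on E2 and -0.065 on E2-BSA. The size of the GINS4 estimate thus depends on the probe set. The estimate of CDC45 was -0.22, that of cyclin E gene CCNE1 -0.17, that of MCM6 -0.08, that of clamp loader subunit RFC5 -0.06 and that of GINS3 -0.04, each with adjusted p = 0.9998 by limma. CCNE1 differed by -0.14 on E2-BSA and -0.24 on E2 in A549, and by -0.14 and -0.17 in HTB-182, so its 4 pairs were closest to one another among the 3 largest. Without the A549 E2 array the median of the 39 was -0.03 and 24 estimates lay below 0.
Of the other lists, 0 genes were called. Among other replication genes with 1 direction in all 4 pairs, ATAD2 had 0.16, the RNase H subunit RNASEH2A -0.15, the thymidylate kinase DTYMK -0.14, ASF1B -0.13, the checkpoint scaffold TOPBP1 0.12 and origin subunit ORC1 -0.08. Among regulators, E2F3 had 0.19, MYC -0.07 and SKP2 -0.06. No G2 or mitosis gene kept 1 direction in all 4 pairs, and that list's median was -0.02.

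On each estrogen form alone, tamoxifen gave 0 calls among all genes, on E2-BSA (0%; 62 genes at an unadjusted p under 0.05) and on E2 (0%; 297 genes). The median of the 39 genes was -0.02 on E2-BSA, with 27 below 0, against 45.1% of all genes. It was -0.10 on E2, with 32 below 0, against 53% of all genes. With arrays left out in turn it ran from -0.08 (without A549 E2-BSA) to 0.04 (without A549 E2-BSA plus tamoxifen) on E2-BSA, and from -0.20 (without HTB-182 E2) to -0.04 (without A549 E2 plus tamoxifen) on E2. The single pairs show where these values lie. In A549, 4 of the 39 genes were at least 1.2-fold lower with tamoxifen on E2-BSA (10.3%, against 4.50% of all genes), and 17 were on E2 (43.6%, against 20.1%). In HTB-182, 1 was on E2-BSA (2.56%, against 3.88%) and 0 on E2 (against 1.85%). At least 1.2-fold higher were 0 genes in A549 on E2-BSA (against 4.13%) and 0 on E2 (against 12.6%), and in HTB-182 E2F1 on E2-BSA (2.56%, against 5.55%) and 0 genes on E2 (against 4.83%). The A549 pair on E2 thus held most of the lower values, and it is a single pair with no replicate. Its E2 plus tamoxifen array was the lowest of its line for 15 of the 39, against 13.7% of all genes. Against the other A549 arrays, that array had a median of -0.15 for the 39 and -0.03 for all genes.

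**Figure D4:**
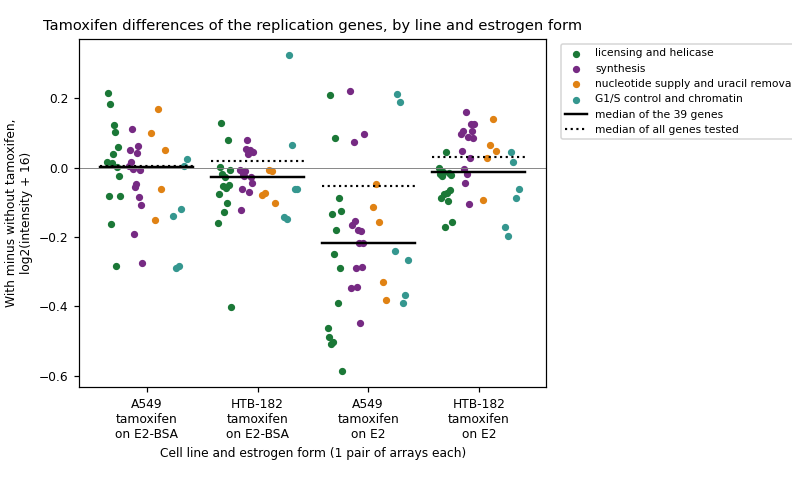
Difference with minus without tamoxifen, in log2(intensity + 16), for the 39 genes in each of the 4 pairs of arrays, coloured by role; solid lines are medians of the 39 genes and dotted lines medians of all tested genes. The A549 pair on E2 has a median of -0.22, against -0.05 for all genes, and the other 3 pairs have medians between -0.03 and 0.0002.

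On E2 in A549 the licensing and helicase genes were the lowest group, 12 of 14 below 0 (58% of all genes) with a median of -0.27. GINS4 differed by -0.59, MCM5 by -0.51, MCM7 by -0.50, MCM3 by -0.49 and MCM2 by -0.46. The exceptions by brightest probe set were MCM4 (0.21) and CDT1 (0.09). Their other probe sets above the filter gave -0.68, -0.21 and 0.17 for MCM4 and -0.03 for CDT1. In HTB-182 on E2 the same 5 genes lay between -0.16 and -0.0001. The 8 genes with the largest difference in 1 direction in both lines on E2 were GINS4 (-0.37), MCM7 (-0.29), MCM5 (-0.27), MCM3 (-0.25), CDC45 (-0.24), MCM2 (-0.23), UHRF1 (-0.23) and CDC6 (-0.21), given as estimates over both lines, with limma's adjusted p = 0.9999 for each. The 95% interval of MCM7, -0.68 to 0.10, spans 0.
On E2-BSA the 8 were GINS4 (-0.24), CCNE2 (-0.22), CDC45 (-0.19), MCM5 (0.16), CCNE1 (-0.14), RRM2 (-0.11), POLA1 (-0.10) and MCM6 (-0.09). MCM5 was thus above 0 on E2-BSA and below 0 on E2. MCM5 had 229, 199.8, 209, 304 and 313 in A549, where the E2 and vehicle arrays were the high ones, against 534, 487, 472, 479.97 and 446 in HTB-182.
Among other lists on E2, MYBL2, a regulator that E2F itself induces, had -0.64 and the polymerase alpha subunit POLA2 -0.37, while E2F3 had 0.30, RB1 0.30 and the chromatin remodeler HELLS 0.49. In G2 and mitosis CDC20 had -0.37 and ANLN 0.33. On E2-BSA the kinase inhibitor CDKN2D had -0.32, CDKN1A 0.33, POLD4 -0.41 and NDC80 0.19. None of these passed the test.

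The difference between the tamoxifen effects, on E2-BSA minus on E2, was tested directly and gave 0 calls over all genes (0%; 116 genes at an unadjusted p under 0.05). The median of the 39 was 0.08, against 0.02 over all genes. It was -0.0094 without the A549 E2 array and 0.02 without the A549 E2 plus tamoxifen array, and ran up to 0.17 without the HTB-182 E2 array. The 8 genes furthest apart in 1 direction in both lines were MCM5 (0.42), MCM7 (0.27), CHAF1B (-0.23), PRIM1 (0.20), UHRF1 (0.20), GINS2 (0.18), POLD1 (0.18) and CDC6 (0.16). The 95% interval for MCM5 was -0.20 to 1.04.
The difference between the lines, tamoxifen in A549 minus tamoxifen in HTB-182, also gave 0 calls (0%; 260 genes at an unadjusted p under 0.05). This model has 3 residual degrees of freedom and its estimate draws on the vehicle arrays too. The median of all genes was -0.09, and that of the 39 was -0.15. The furthest in 1 direction were CDC45 (-0.56), E2F2 (-0.46), TK1 (-0.41), POLD1 (-0.36), POLE (-0.31), MCM6 (-0.29), LIG1 (-0.27) and CHAF1B (-0.26), with limma's adjusted p = 0.972 for CDC45. In its pairs CDC45 differed by -0.28 on E2-BSA and -0.39 on E2 in A549, and by -0.10 on E2 in HTB-182. On E2-BSA CDC45 was lower with tamoxifen in HTB-182 too, so every pair of either line lay below 0. Its estimate ran from -0.83 to -0.24 over the alternatives. All of these genes, from CDC45 to CHAF1B, were highest in A549 on the vehicle array, whose part here was not tested. With arrays left out in turn the median of the 39 ran from -0.16 to -0.07. Without an E2 array of either line it was -0.07, against -0.08 over all genes, without an E2 plus tamoxifen array -0.07, against -0.13, and without a vehicle array -0.10, against -0.04, so the order of the 2 medians is not kept.

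E2-BSA was compared with E2, both without tamoxifen, in 1 pair per line. The test gave 0 calls over all genes (0%; 454 genes at an unadjusted p under 0.05), and the median of the 39 was -0.03. That median was 0.03 without the A549 E2-BSA array and 0.05 without the A549 E2 array. CCNE2 had the largest estimate, 0.42 (95% interval 0.07 to 0.78), with an unadjusted p of 0.0239 and limma's adjusted p = 0.993. In A549 CCNE2 had 197 on E2-BSA and 115 on E2, and in HTB-182 928 and 843. The other CCNE2 probe set, dimmer but above the filter, disagreed on the A549 E2 array. There E2 minus vehicle was -0.29 by the brightest probe set and 0.26 by the other. The other 7 largest in 1 direction in both lines were CDT1 (0.23), PCNA (0.19), CHAF1B (0.17), RRM2 (0.17), MCM7 (-0.17), RFC3 (0.15) and MCM4 (0.14). In HTB-182, 36 of the 39 lay above 0, against 9302 of all 12979 genes, where the median of all genes was 0.07. In A549, 28 lay below 0, against 62.3% of all genes, where that median was -0.10. The HTB-182 E2-BSA array was the highest of its line for 24 of the 39, against 27.1% of all genes. For all 39 genes the whole 95% interval lay within 2-fold either way, and its median reach to either side was 1.26-fold. Of the other lists RB1 (0.42), HELLS (0.54), MKI67 (-0.39) and ANLN (0.36) had the largest values with 1 direction in both lines.

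Against vehicle, each of the 4 treatments gave 0 calls over all genes: E2-BSA plus tamoxifen (0%; 962 genes at an unadjusted p under 0.05), E2-BSA (0%; 840), E2 plus tamoxifen (0%; 594) and E2 (0%; 581). These comparisons share the 2 vehicle arrays. The medians of the 39 were -0.03, -0.02, -0.10 and -0.0019 in the same order, against -0.06, -0.07, -0.07 and -0.06 over all genes. Without the A549 vehicle array they were 0.05, 0.07, -0.03 and 0.10, and without the HTB-182 vehicle array -0.13, -0.12, -0.23 and -0.12, so their sign depends on which vehicle array is used, except for E2 plus tamoxifen. The genes above 0 in both lines were led by UNG, at 0.53 for E2-BSA plus tamoxifen, 0.56 for E2-BSA and 0.33 for E2 plus tamoxifen. RRM1 had 0.38, 0.37 and, for E2, 0.31. Against the other arrays of its line, vehicle was at -0.62 for RRM1 in A549 and at -0.009 in HTB-182. The RRM1 estimates thus rest mainly on A549, where its other probe set gave -0.09 for E2 minus vehicle. UHRF1 had 0.28, 0.31 and, for E2, 0.27. Against vehicle UNG was at 1.05, 1.00, 0.64 and 1.02 in A549 in that order of treatments, and at 0.01, 0.11, 0.03 and -0.02 in HTB-182, so its estimates rest on the A549 arrays. Limma's adjusted p was at least 0.653 for all 39 genes in all 4.
For E2-BSA plus tamoxifen the further genes were CDT1 (0.34), GINS4 (-0.29), RPA2 (-0.23), SLBP (0.16) and RFC3 (0.14). For E2-BSA they were CDT1 (0.29), CCNE2 (0.29), POLE (-0.26), RRM2 (0.22) and RPA2 (-0.21). For E2 plus tamoxifen they were POLD1 (-0.34), GINS2 (-0.30), POLE (-0.30), RPA2 (-0.24), CHAF1B (-0.20), E2F1 (-0.18) and CCNE1 (-0.18). For E2 they were CHAF1B (-0.31), E2F1 (-0.30), SLBP (0.27), POLE (-0.26), TK1 (-0.19) and CDC6 (0.19). None of these passed the test.
Among other replication genes the histone chaperone NASP had the largest value among those above or below vehicle in both lines, 1.11 for E2-BSA plus tamoxifen, 1.06 for E2-BSA, 1.10 for E2 plus tamoxifen and 1.22 for E2, and it rests on A549. Its intensities were 394, 349, 417, 479 and 81.0 in A549 cells, where vehicle alone is low, against 1092, 1141, 1019.6, 1056 and 991 in HTB-182 cells. Against vehicle NASP was at 2.08, 1.91, 2.16 and 2.35 in A549 and at 0.14, 0.20, 0.04 and 0.09 in HTB-182, in that order of treatments. HELLS had 0.94, 1.01 and 0.97 for the first 3 treatments, and was at most 0.06 above vehicle in HTB-182. Among regulators RB1 had 0.49 for E2-BSA plus tamoxifen and 0.44 for E2-BSA, MYBL2 -0.44 for E2 plus tamoxifen and E2F4 -0.39 for E2. In G2 and mitosis CDK1 had 0.33 for E2-BSA plus tamoxifen and 0.35 for E2-BSA, CDC20 -0.52 for E2 plus tamoxifen and BUB1B -0.12 for E2. These too did not pass the test.

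The A549 vehicle array, which stood apart from its line, enters all 4 of these comparisons. On it 14 of the 39 genes were at least 1.2-fold higher than the mean of the other 4 A549 arrays and 4 were at least 1.2-fold lower, against 35.9% and 12.1% of all genes. It was the highest A549 array for 20 of the 39 genes and the lowest for 7, against 49.5% and 17.2% of all genes. These shares of the 39 are near those of all genes. CDC45, whose 5 A549 values are given above, was 1.89-fold higher there than on the other A549 arrays, E2F2 1.47-fold, TK1 1.46-fold, MCM7 1.44-fold and POLD1 1.42-fold. UNG was 1.90-fold lower there, RRM1 1.54-fold, UHRF1 1.27-fold and SLBP 1.25-fold. On the HTB-182 vehicle array 0 of the 39 were at least 1.2-fold higher and CDT1 alone was lower by that size, against 2.37% and 2.64% of all genes. The part of this array in the comparisons with vehicle was not tested, and in A549 vehicle and array cannot be told apart. Without the HTB-182 vehicle array some of the 39 genes were called in each of the 4, among calls throughout the array. The comparison then rests on the A549 vehicle array alone, so these calls are not read as a result about the 39. Without the A549 vehicle array 0 of the 39 were called in any of the 4.

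**Figure D5:**
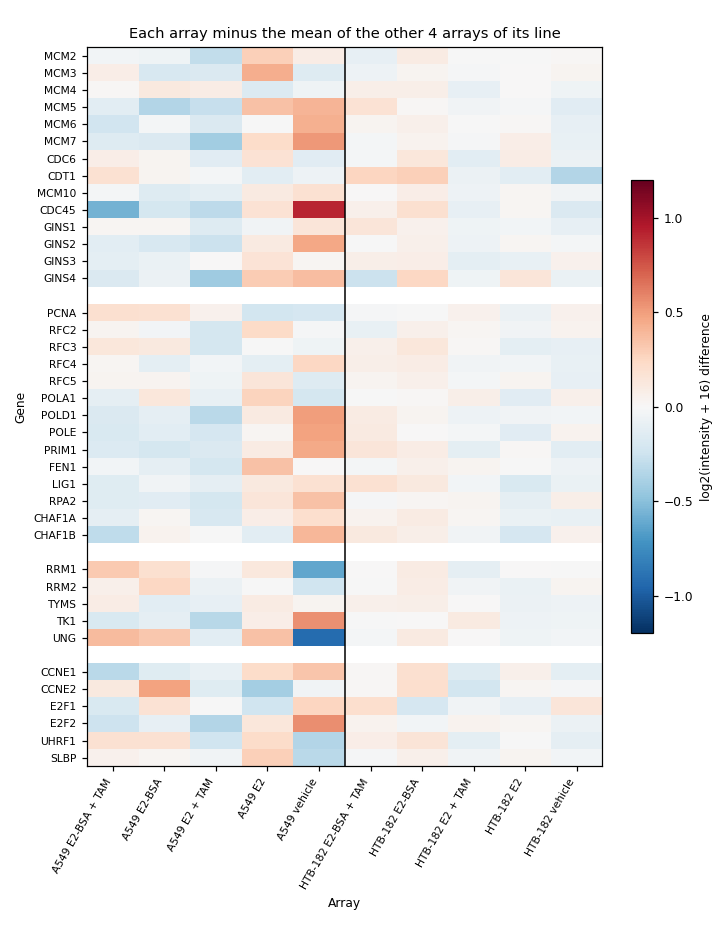
Each array minus the mean of the other 4 arrays of its line, in log2(intensity + 16), for the 39 genes (rows, by role) and 10 arrays (columns, A549 left of HTB-182). The strongest colours are in the A549 vehicle column, where CDC45 is 0.92 above and UNG 0.93 below the other A549 arrays.

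Other probe sets were read as a check for the 23 genes that have more than 1. Of 28 other probe sets above the filter, from 21 genes, 26 had the same sign of line difference as the brightest one, with a median of -0.64. The exceptions were a dim probe set of MCM4 (0.17) and that of TK1 (0.04). Sizes varied. The widest gap was in GINS2, with -2.34 by its brightest probe set and -0.11 and -0.65 by its 2 dim ones. CDT1, whose brightest probe set is of a kind that may bind other transcripts, had -2.02 and -0.54, and CCNE2 had -2.37 and -1.21. CHAF1A had -2.32, -2.02 and -1.92. RFC5 had -1.15, -0.04 and -1.87. MCM4 had -0.42, -0.92, -0.57 and 0.17. For tamoxifen over both forms, 23 of the 28 were below 0, with a median of -0.10.
Probe sets of 1 gene also disagreed on the A549 vehicle array. Against the other A549 arrays MCM4 was -0.06 by its brightest probe set and -1.45, 0.18 and 0.17 by the others above the filter. In the same order of brightness RFC5 was -0.16, -0.33 and -1.77, and RRM1 -0.62 and 0.45. There 17 of the 28 had the sign of the brightest probe set. For RRM1 the value above vehicle in A549 therefore stands for 1 of its 2 probe sets.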

How the data were processed

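Total RNA of 10 cell line samples was hybridised to 1-colour Affymetrix arrays. The authors deposited 1 table of intensities on a linear scale, made with MAS5 per the submitters' processing notes. For MAS5, neither version nor target value is given in the sources used here. Deposited values were used without further scaling, as log2(intensity + 16), so folds understate changes of dim genes. Of 54675 probe sets, 62 controls, 1801 that name several genes and 11721 that name none here were left out. Each gene was read from its brightest probe set, and 12979 genes with a mean at or above the median of all probe sets (intensity 19.7) were tested.

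Differences were fitted over all tested genes with limma 3.58.1 in R 4.3.3 (intensity trend, Benjamini-Hochberg, threshold 0.05). The model held line and treatment. The line is the block that pairs arrays, since arrays of a pair come from 1 cell line. Its spread is therefore the disagreement between lines, and a response of 1 line raises it. Single pairs are given as sizes, and 1.2-fold is the size counted. The fitting code was tested on simulated data. The number of arrays limits the precision.

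The 39 genes and all lists were chosen with earlier results of these data known. Named in each comparison are all called genes of the 39, or, where none was called, the 8 with the largest difference in 1 direction in every pair. From each other list up to 6 genes were eligible by the same rule. Promoters were matched by symbol to RefSeq on GRCh38.p14. The alternatives tried were other pseudocounts, filters, normalizations and probe set rules, array weights, no trend, no line term and leaving out each array.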

Additional observations from a re-analysis of the deposited data

Results flagged for a closer look

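In 9 of the 39 genes all 4 treated A549 arrays lay below A549 vehicle while all 4 treated HTB-182 arrays lay above HTB-182 vehicle (23.1%, against 14.9% of all genes). The mean of treated minus vehicle in A549, less that in HTB-182, was -1.09 for CDC45, -0.63 for E2F2, -0.61 for MCM7, -0.58 for PRIM1, -0.54 for MCM5, -0.53 for MCM6, -0.34 for RFC4, -0.29 for CHAF1A and -0.25 for GINS1. These differences were not tested, the 4 values of a line share 1 vehicle array, and that of A549 stands apart as described above.

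In 4 genes both A549 tamoxifen pairs went 1 way and both HTB-182 pairs the other (10.3%, against 11.1% of all genes), a share near that of all genes. The tested difference in tamoxifen effect, A549 minus HTB-182, was -0.46 for E2F2, -0.31 for POLE and -0.27 for LIG1, each with limma's adjusted p = 0.972, and -0.026 for RFC4 with adjusted p = 0.991. RFC4 was above 0 in A549, while its estimate, which also draws on the vehicle arrays, has the other sign. Of the 78 sets of 5 arrays (39 genes in 2 lines), 0 held an array far from the others by Dixon's ratio, a rule that chance meets in about 1 set in 20.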

How the results depend on the processing

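The number of the 39 genes called between the lines lay between 34 and 36 in the 19 alternatives, and 34 of the 36 called genes were called in each. The exceptions were POLE and CHAF1B, with adjusted p up to 0.0555 and 0.111 where 1 array was left out, which shortens the comparison to 4 pairs. The median difference lay between -1.10 (array quality weights) and -0.77 (mean over all probe sets), and between -1.08 and -0.88 with an array left out. No call among the 39 appeared in a treatment comparison with another pseudocount, filter, normalization, probe set rule, weighting or trend, or with no replicate block, where the line term was dropped. Without the HTB-182 vehicle array the calls against vehicle were 5 for E2, 8 for E2-BSA, 10 for E2 plus tamoxifen and 7 for E2-BSA plus tamoxifen. They were 0 without any other array, so leaving out arrays gave from 0 to these counts. The tamoxifen median of the 39 lay between -0.09 and -0.04 over settings that kept all arrays, and between -0.11 and -0.03 with an array left out.

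Some values of uncalled genes changed sign, and the cause was not tested. With an array left out, TK1 ran from -0.13 to 0.076 and CCNE1 from -0.11 to 0.052 between the lines, and with the mean over all probe sets TK1 had 0.014. For tamoxifen over both forms GINS3 ran from -0.11 to 0.018. For tamoxifen on E2-BSA, CDC45 ran from -0.51 to 0.12, MCM5 from -0.030 to 0.34, CCNE1 from -0.31 to 0.029 and MCM6 from -0.22 to 0.041. Against vehicle, TK1 on E2 ran from -0.49 to 0.11, and on E2 plus tamoxifen UNG ran from -0.11 to 0.78 and CCNE1 from -0.41 to 0.046. GINS2, in tamoxifen on E2-BSA minus on E2, had -0.099 with the mean over all probe sets. Of the 39 genes, 32 to 34 had all A549 arrays below all HTB-182 arrays under other normalizations and probe set rules. The share over all genes was counted under the main setting alone.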

Other observations

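Genes that act in 1 complex or pathway differed unequally between the lines. Among the GINS subunits the difference ran from -2.34 for GINS2 to 0.83 for GINS1, in the clamp loader from -2.88 for RFC4 to -0.67 for RFC3, in the chromatin assembly factor -2.32 for CHAF1A and -0.31 for CHAF1B, and in ribonucleotide reductase -1.41 for RRM1 and -0.34 for RRM2. Probe sets differ in how steeply they respond, so unequal values do not show unequal amounts of subunit RNA.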
